A study of Mus musculus with 2 samples.

Results

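The genes described here make fatty acids from acetyl-CoA or are closely tied to that pathway: Fasn, Acaca, Acacb, Acly, Acss2, Slc25a1, Mlxipl, Thrsp and Pnpla3. All 9 were chosen by name, with earlier results of these data known, and every probe set that carried only that gene's symbol was used. This gave 20 probe sets out of 34945 with a single gene symbol, and 9 genes out of 18193. The ligand group was RAW264.7 cells, a mouse macrophage-like line, stably expressing murine LXRα after chemical transfection and cultured for 24 h with 1 µM GW3965, which activates LXR, together with 100 nM LG268, which activates the RXR partner. The control group was the same LXRα-expressing cells cultured for 24 h with the solvent DMSO. Each group had 1 Affymetrix mouse array, so no difference below could be tested against variation between cultures. Both groups carried the introduced receptor and the ligands were given together, so neither the effect of LXRα alone nor that of a single ligand was measured. The labels do not say whether the transfected line was a single clone.

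De novo fatty acid synthesis begins with citrate, which the mitochondrial carrier Slc25a1 exports to the cytosol. Acly splits it into acetyl-CoA and oxaloacetate, while Acss2 makes acetyl-CoA from acetate. Acaca carboxylates acetyl-CoA to malonyl-CoA, and Fasn condenses both into palmitate. In liver and fat these genes are known to be driven by SREBP-1, itself encoded by an LXR target gene, and by the glucose-sensing factor ChREBP (gene Mlxipl). In macrophages, LXR is known both for cholesterol export and for lipid synthesis. Bulk arrays cannot tell more cells with a transcript from more transcript per cell.

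The sequence just upstream of the gene start is shown for 4 enzymes or carriers whose signals were clear on both arrays, because their ratios spanned the range of the group. Each run is the 250 bases before the start in RefSeq's GRCm38.p6 table, read 5′ to 3′ on the gene's strand, and capitals mark matches to a CCAAT box (CCAAT), a GC box (GGGCGG) or the E-box CACGTG, on either strand.
Fasn (chr11:120824548-120824797, minus strand): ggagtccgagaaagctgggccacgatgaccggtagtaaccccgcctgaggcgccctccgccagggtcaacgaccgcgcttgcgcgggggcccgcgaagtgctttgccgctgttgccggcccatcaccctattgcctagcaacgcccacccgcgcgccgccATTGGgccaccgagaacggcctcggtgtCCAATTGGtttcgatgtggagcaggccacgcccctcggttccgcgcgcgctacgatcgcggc
Acss2 (chr2:155517793-155518042, plus strand): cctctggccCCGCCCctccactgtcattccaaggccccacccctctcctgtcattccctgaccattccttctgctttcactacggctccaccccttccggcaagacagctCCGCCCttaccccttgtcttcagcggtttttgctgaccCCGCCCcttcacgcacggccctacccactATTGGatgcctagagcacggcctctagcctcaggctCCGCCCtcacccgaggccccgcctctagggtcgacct
Acly (chr11:100528001-100528250, minus strand): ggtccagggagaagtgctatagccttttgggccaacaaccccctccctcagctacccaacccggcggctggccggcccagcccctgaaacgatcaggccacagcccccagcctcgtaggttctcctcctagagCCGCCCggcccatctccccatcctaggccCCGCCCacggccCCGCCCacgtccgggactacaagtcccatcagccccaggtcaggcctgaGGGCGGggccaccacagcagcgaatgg
Slc25a1 (chr16:17928220-17928469, minus strand): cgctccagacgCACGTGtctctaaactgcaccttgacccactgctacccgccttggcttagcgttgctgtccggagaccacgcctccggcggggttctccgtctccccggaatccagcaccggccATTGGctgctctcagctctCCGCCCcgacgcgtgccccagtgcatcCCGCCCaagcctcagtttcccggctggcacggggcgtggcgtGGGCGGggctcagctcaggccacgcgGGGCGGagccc
The Fasn window held 3 CCAAT matches and no GC box, and its pair between positions -62 and -55 from the start overlapped on opposite strands. No GC box overlapped a CCAAT match in these windows. Acss2 had 1 CCAAT box and 4 GC boxes, and Slc25a1 had the same counts plus 1 E-box. Acly had 4 GC boxes and no CCAAT box. Windows with a CCAAT match made up 33.8% of all 32851 windows of this length, GC boxes 32.7% and the E-box 6.02%. A sterol regulatory element core (TCACNCCAC) was searched on both strands as well. It was in none of the 4 printed windows, against 1.05% of all windows. At so low a share, its absence from 4 windows says little. Among the other members, only 1 of the 2 Mlxipl windows held the sterol core, and the single window listed for Acaca, a gene known to have several promoters, held none of the motifs. Thrsp had 2 CCAAT boxes, Acacb 1, and Pnpla3 1 with 2 GC boxes. Only these exact letters were searched, so they say nothing of variant sites within the windows or of sites outside them.

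The values are MAS5 signals on a linear scale, scaled to a 2% trimmed mean of 2500.02 on both arrays. Signals under 276.4, the median of all probe sets other than controls, were set to that floor, and a probe set was counted as measured when at least 1 array exceeded it. A second probe set of the same gene gave the only available error. Per probe set, the SD of the log2 ratio was 0.28 over 4866 genes that had a pair of probe sets over the floor on each array. It was 0.19 over the 2309 genes with such a pair above the 75th percentile of signal (2186). As a check on the cells, all 10 macrophage markers were above the floor, with summed signals of 634824 with the ligands and 583100 with DMSO. Their ratios were 5 positive and 5 negative, from Mpeg1, a pore-forming protein, at 2.03-fold higher to Ptprc, the leukocyte antigen CD45, at -0.27 on the log2 scale, and Fcgr1, an Fc receptor, was 1.53-fold higher. The part of these shifts in the results below was not tested. Of the hepatocyte markers 1 of 7 on the array was measured (Apoa1, 380 with the ligands and 25.9 with DMSO), and Alb was below the floor on both arrays. Their summed signals were 773 with the ligands and 585 with DMSO. Of the adipocyte markers 1 of 5 was measured (Lipe), with Adipoq and Lep below the floor, and the sums were 1854 with the ligands and 2577 with DMSO.

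The 3 enzymes Acss2, Fasn and Acaca had the highest ratios of the group, each more than 2.5-fold higher with the ligands. Acly was 1.64-fold higher and the citrate carrier Slc25a1 1.26-fold higher. Acacb and Mlxipl were below the floor on both arrays, and Thrsp and Pnpla3 exceeded it only with the ligands. The plot of every probe set shows the wide gap between the well-measured enzymes and the members near or below the floor.

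**Figure D1:**
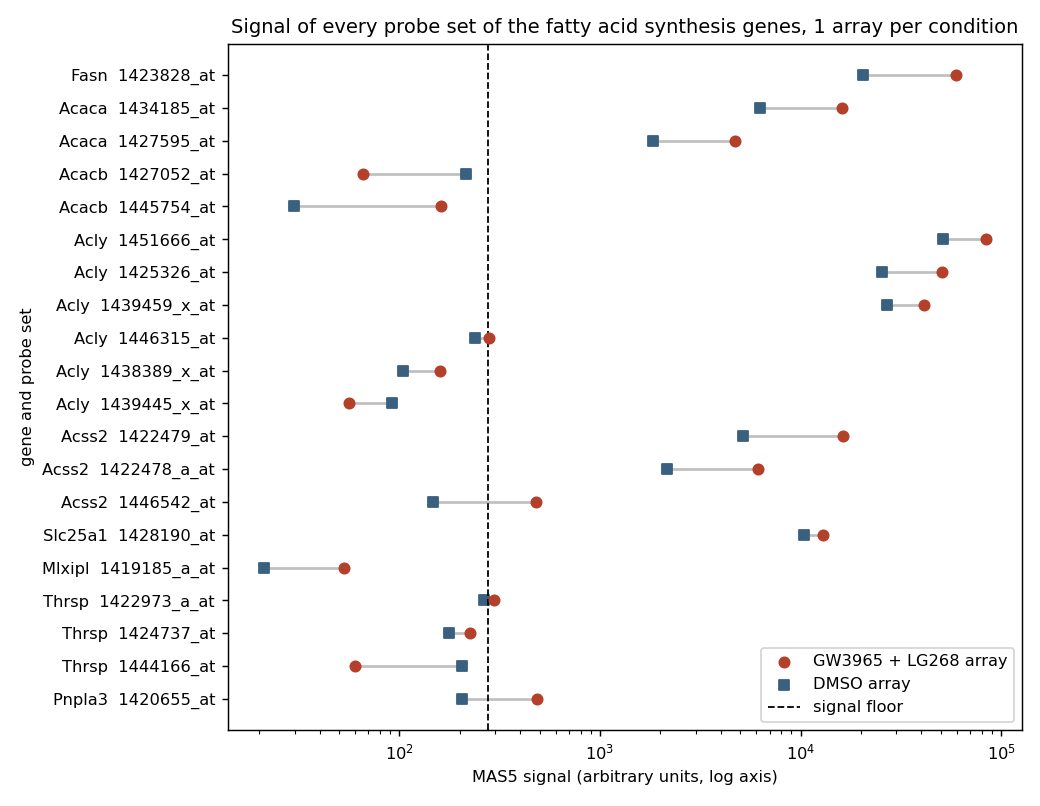
MAS5 signal (log axis) of each of the 20 probe sets on the ligand array (circles) and the DMSO array (squares), with the floor of 276.4 as a dashed line. The 9 probe sets right of the floor on both arrays, for Fasn, Acaca, Acly, Acss2 and Slc25a1, all have the circle to the right of the square.

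Of the 20 member probe sets, 9 were above the floor on both arrays, 4 only with the ligands and 7 on neither. All 9 measured on both arrays were higher with the ligands, and 5 of them were at least 2-fold higher. Over the whole array, 1.63% of the 18121 gene probe sets over the floor on each array passed 2-fold upwards and 0.866% passed it downwards. The 4 probe sets above the floor only with the ligands had to come out higher, so they add nothing to that count. With them, 5 of 13 measured probe sets reached 2-fold, against 1.8% of all measured gene probe sets (1.07% for lower). By gene, using the probe set of highest mean log2 signal, 3 of 7 measured members passed 2-fold upwards, against 1.67% of all 11077 measured genes. None passed it downwards, against 0.776%. Thrsp and Pnpla3 among the 7 are bounds that could only point upwards. Over the 5 genes above the floor on both arrays the median log2 ratio was 1.36, against -0.03 over all 9769 such genes. Over all 7 measured members, bounds included, it was 0.81, which is the bound of Pnpla3 and so depends on the floor.

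Among the suppliers of cytosolic acetyl-CoA, Acss2 had the higher transcript ratio and Acly the higher signals. The acetate-activating enzyme Acss2 had a signal of 16221 with the ligands and 5163 with DMSO, which is 3.14-fold higher. Its second probe set read 6131 with the ligands and 2149 with DMSO, 2.85-fold higher. A further, weak probe set read 482 with the ligands and lay below the floor with DMSO (147), a bound of at least 1.74-fold. That bound could only point upwards, whereas the 2 brighter probe sets were free to disagree, and their log2 ratios, 1.65 and 1.51, lay within 1 SD of each other. A further probe set that shares its annotation between Acss2 and Gssos2 was left out by the rule, and it was below the floor on both arrays (110 with the ligands and 33.4 with DMSO).

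Acly, ATP citrate lyase, had 6 probe sets, more than any other member. Its brightest read 84241 with the ligands and 51489 with DMSO, 1.64-fold higher. The second read 50439 with the ligands and 25548 with DMSO, 1.97-fold higher, and the third 41304 with the ligands and 27060 with DMSO, 1.53-fold higher. The last of these is of a design that can also detect other transcripts. None of the 3 reached 2-fold, and their log2 ratios ran from 0.61 to 0.98. The other 3 were weak: one read 279 with the ligands and 237 with DMSO, at most just above the floor, and the remaining pair was below it on both arrays. Slc25a1, the mitochondrial citrate carrier that feeds Acly, had a single probe set with 12993 with the ligands and 10339 with DMSO. Its log2 ratio of 0.33 was under 2 of the probe set SDs for bright probe sets, and 15.3% of measured genes had a higher ratio.

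The committed step and the synthase itself had similar ratios. Acaca, acetyl-CoA carboxylase 1, read 16085 with the ligands and 6245 with DMSO, 2.58-fold higher. A dimmer Acaca probe set read 4727 with the ligands and 1826 with DMSO, 2.59-fold higher. Its 2 probe sets therefore differed by 0.01 on the log2 scale. Fasn, the multifunctional synthase, read 59695 with the ligands and 20567 with DMSO on its only probe set, 2.90-fold higher, so no second probe set could be set beside it. Of all measured genes, 0.46% had a higher ratio than Acss2, 0.533% a higher one than Fasn and 0.713% a higher one than Acaca, against 4.29% for Acly.

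The 5 genes above the floor on both arrays fell into unequal steps when their log2 ratios were set side by side. The SD of a difference between 2 bright probe sets was 0.26. Fasn exceeded Acaca by 0.17 and was 0.11 below Acss2, and Acaca was 0.29 below Acss2, so these 3 differed by at most 1.09 SD. Acss2 exceeded Acly by 0.94, Fasn exceeded it by 0.83 and Acaca by 0.65, which is 3.58, 3.14 and 2.49 SD. Acly exceeded Slc25a1 by 0.38, or 1.45 SD. These SDs cover disagreement between probe sets within 1 pair of arrays and not variation between cultures. Against the second Acly probe set, at 0.98, the gaps to Acss2, Fasn and Acaca are smaller. The gap to Acaca, at 1.36, is then under 2 of these SDs, so that step depends on the Acly probe set.

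**Figure D2:**
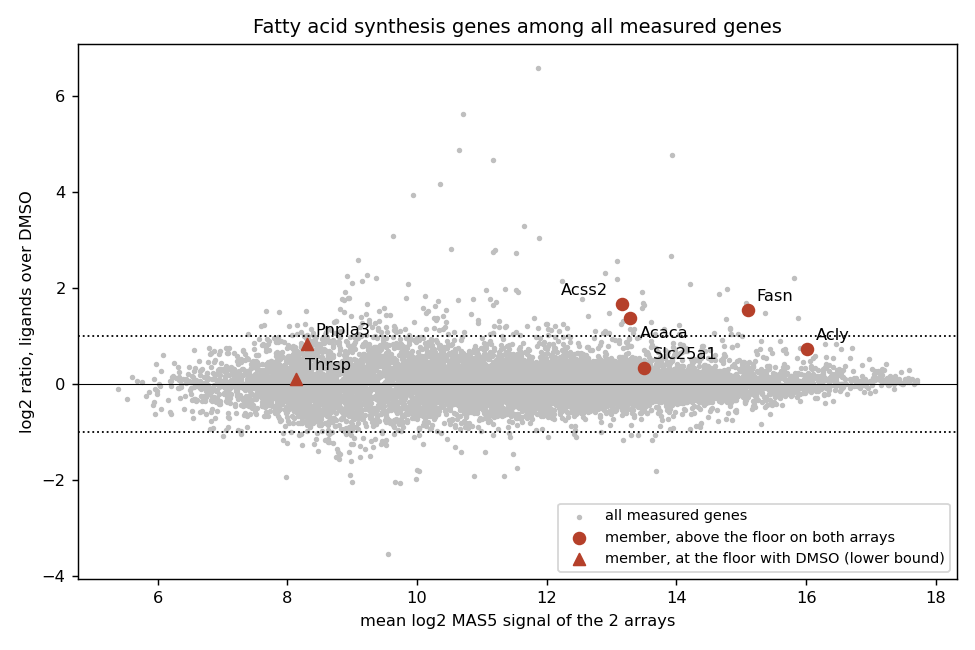
Log2 ratio of ligands over DMSO against mean log2 signal for the 11077 measured genes (grey) and the 7 measured members (red; triangles are lower bounds), with dotted lines at 2-fold. Acss2, Fasn and Acaca lie above the upper line, Acly and Slc25a1 below it, and Pnpla3 and Thrsp sit among the weak signals where the grey cloud is wide.

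The second carboxylase was not in the measured range. Acacb, acetyl-CoA carboxylase 2, makes the malonyl-CoA that restrains mitochondrial fatty acid uptake. Its probe sets read 66.1 with the ligands and 216 with DMSO, and 161 with the ligands and 29.9 with DMSO. Both pairs lay below the floor and pointed in opposite directions, so no fold is given. Of the 2 carboxylase genes, Acaca alone had probe sets above the floor.

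The regulators and accessory proteins were at or near the floor. Mlxipl, which encodes ChREBP, read 52.9 with the ligands and 21.1 with DMSO on its single probe set, below the floor on both arrays. Thrsp, the thyroid hormone-responsive Spot 14 protein of lipogenic tissues, had 1 of 3 probe sets above the floor, at 297 with the ligands against 264 with DMSO, a bound of at least 1.07-fold. The other 2 Thrsp probe sets read 225 with the ligands and 176 with DMSO, and 60.0 with the ligands and 205 with DMSO, and did not share a direction. Pnpla3, a patatin-like lipase of lipid droplets, read 486 with the ligands and lay below the floor at 204 with DMSO, a bound of at least 1.76-fold from 1 probe set. Of the 7 member probe sets below the floor on both arrays, the ratios of the unfloored signals ran from 0.293 to 5.39.

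Relatives and partners of several members were on the array as well. Mid1ip1, the paralogue of Thrsp that binds acetyl-CoA carboxylase and promotes its polymerisation, read 43170 with the ligands and 19523 with DMSO, 2.21-fold higher. Mlx, the dimerisation partner of ChREBP, had a log2 ratio of -0.01, and Mlxip, which encodes the ChREBP paralogue MondoA, had 0.04. Acss1, the mitochondrial acetyl-CoA synthetase, read 45.8 with the ligands and 294 with DMSO, at least 1.06-fold lower. Pnpla2, the adipose triglyceride lipase, had a log2 ratio of 0.28. Slc25a10, the mitochondrial dicarboxylate carrier, read 10765 with the ligands and 5167 with DMSO, 2.08-fold higher, with 1.06 and 1.00 on the log2 scale from its 2 probe sets, against 0.33 for the citrate carrier Slc25a1.

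Around the members, 81 other genes of the pathway were listed by role, also with earlier results of these data known, and 66 of them were measured. Of these, 4 were at least 2-fold higher, which is 6.06% against the 1.67% of all measured genes, and 2-fold lower ones were absent. The median over the 66 was -0.0023 on the log2 scale, so the list as a whole lay at the array's centre while 3 of the 7 measured members were past 2-fold. The 4 were Srebf1, Mid1ip1, Slc25a10 and Scd1. Srebf1, which encodes SREBP-1, read 61505 with the ligands and 19263 with DMSO, and its log2 ratio of 1.67 stood beside 1.65 for Acss2 and 1.54 for Fasn. Scd1, which desaturates the stearate made from palmitate, had a log2 ratio of 2.20, above every member.

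**Figure D3:**
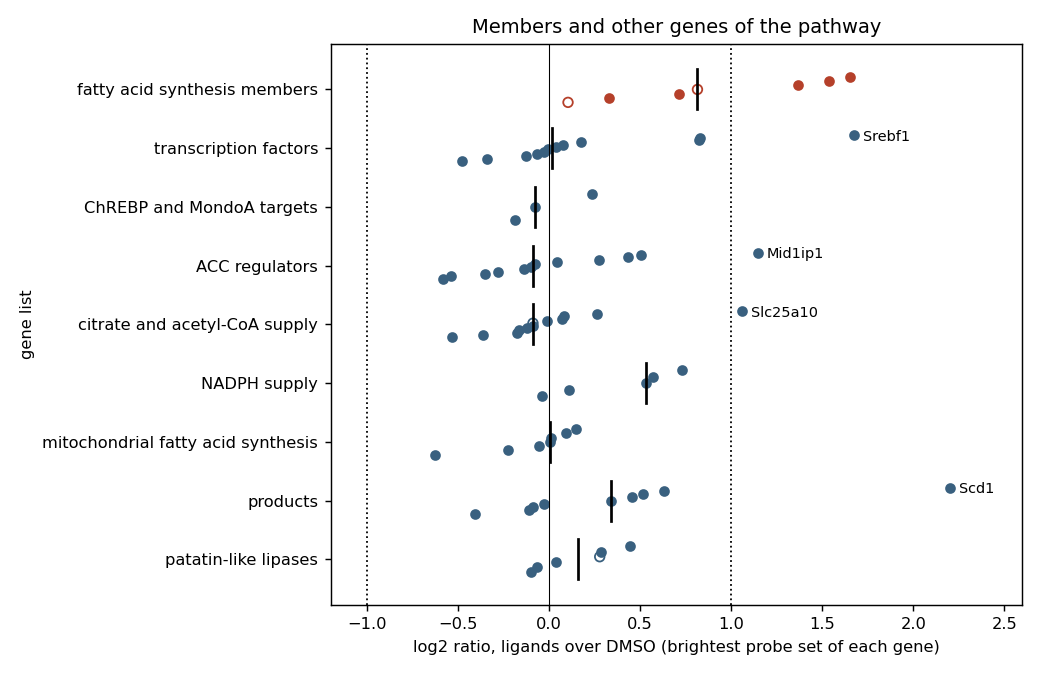
Log2 ratio of ligands over DMSO for each measured gene of the members (red) and 8 lists of the pathway (blue), with open circles for bounds, vertical bars for medians and dotted lines at 2-fold. The median bar of the members is at 0.81, which is the lower bound of Pnpla3 and so depends on the floor. Srebf1, Mid1ip1, Slc25a10 and Scd1 are the other genes past 2-fold.

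The 12 transcription factors split evenly, 6 with positive and 6 with negative ratios. Besides Srebf1, Usf1, an E-box-binding factor, was 1.77-fold higher (its other measured probe set had a log2 ratio of 1.18). The LXRα gene Nr1h3 was 1.77-fold higher on 1 measured probe set. Both groups carried introduced murine LXRα, and whether this probe set also reads that transcript was not tested. Sp1 was lowest at -0.48, with probe sets up to 0.51. Of the ChREBP and MondoA targets 3 of 7 were measured, from Khk, ketohexokinase, at 0.23 to Arrdc4, an arrestin-domain protein, at -0.19. The other measured Arrdc4 probe set was at 0.28, above Khk. Pklr, the liver-type pyruvate kinase, was below the floor on both arrays. No measured gene of that list reached 1.5-fold.

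Regulators of the carboxylases gave 5 positive and 7 negative ratios over 12 measured genes, with a median log2 ratio of -0.09. Apart from Mid1ip1 their log2 ratios ran from 0.51 for Slc5a6, a biotin transporter, to -0.58 for Hlcs, which attaches biotin to the carboxylases. Prkag2, also in this list, was at -0.28, with probe sets up to 0.64. Mlycd, which degrades malonyl-CoA, was at -0.54 on 1 measured probe set, at signals of 767 with the ligands and 1116 with DMSO. That is opposite in sign to Acaca but under 2 of the probe set SDs of 0.28. Prkaa1, a catalytic subunit of the AMP-activated kinase that phosphorylates the carboxylases, was at 0.04.

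Citrate and acetyl-CoA supply gave 4 positive and 8 negative ratios over 12 measured genes, with a median log2 ratio of -0.09. Next to Slc25a10 at 1.06, Mdh2 was at 0.26 and Cs, citrate synthase, at -0.13, and the lowest was the plasma membrane citrate transporter Slc13a5 at -0.53, at signals of 369 with the ligands and 533 with DMSO. The cytosolic enzymes Acss2 and Acly thus had higher ratios than the pyruvate dehydrogenase subunits Pdha1 at 0.07 and Pdhb at -0.18.

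NADPH supply, which Fasn needs for its reductions, had 5 measured genes and a median log2 ratio of 0.53. G6pdx, another gene of this list, had no probe set with its symbol alone. Idh1, cytosolic isocitrate dehydrogenase, was 1.66-fold higher (78874 with the ligands and 47537 with DMSO). Me1, cytosolic malic enzyme, was 1.48-fold higher, and its other measured probe set had a log2 ratio of 0.93. Idh2, the mitochondrial isocitrate dehydrogenase, was lowest at -0.04, and a second Idh2 probe set was at -0.79. None reached 2-fold.

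The separate mitochondrial fatty acid synthesis pathway had 4 positive and 3 negative ratios over 7 measured genes, with a median log2 ratio of 0.00. Oxsm, its condensing enzyme, was at 0.15, and Mecr, its enoyl reductase, at 0.01. Acsf3, which makes mitochondrial malonyl-CoA, was lowest at -0.63, at signals of 797 with the ligands and 1232 with DMSO. Another gene of this list, Aasdhppt, was at -0.23, but 1 of its 4 measured probe sets was at -0.97. Among genes that desaturate, elongate or esterify fatty acids, 5 of 9 were positive and the median log2 ratio was 0.34, from Scd1 down to Dgat2, a triglyceride-forming acyltransferase, at -0.41, whose other measured probe set, at the floor with DMSO, had a lower bound of 1.18. The elongase Elovl6, which acts directly on palmitate, was at -0.03. Patatin-like lipases other than Pnpla3 ran from 0.44 for Pnpla6 to -0.10 for the lipase activator Abhd5, with none past 1.5-fold.

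**Figure D4:**
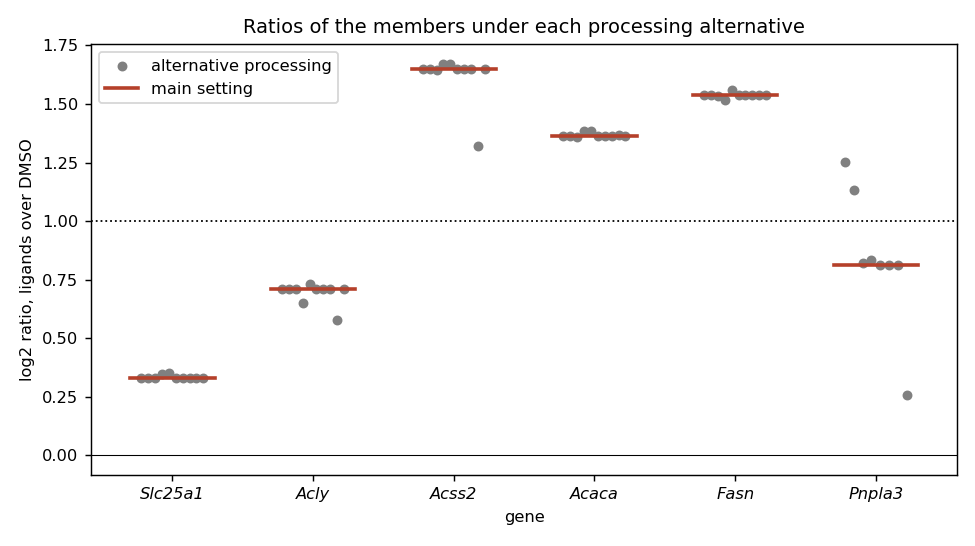
Log2 ratio of ligands over DMSO for 6 members, with the reported value as a red bar and each processing alternative as a grey point, and a dotted line at 2-fold. Points for Fasn stay between 1.52 and 1.56 and for Acaca between 1.36 and 1.39, while Pnpla3, which is at the floor with DMSO, spreads from 0.26 to 1.25. The floor and rescaling alternatives could not move Fasn, Acaca or Slc25a1.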

How the data were processed

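RNA from 2 cultures of RAW264.7 cells was hybridised to 1 Affymetrix mouse array each. Linear MAS5 signal intensities were deposited for each probe set (the tool is taken from the submitters' processing notes, which list no version), and no further normalization was applied. MAS5 signals near background are noisy, and scaling to a common trimmed mean makes each ratio relative to the bulk of the array.

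Gene names come from GEO's platform annotation, which gives a single symbol to 34945 of 45101 probe sets, several to 932 and none to 9160, beside 64 controls. Symbols of 34741 were updated by gene identifier to GRCm38.p6, and all 20 member probe sets had the same symbol in both tables. The files name no genome build, so coordinates are given only for RefSeq promoter windows.

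The floor was the 50th percentile of both arrays (276.4). Log2 ratios are ligands over DMSO after flooring, and a gene was represented by whichever of its probe sets had the highest mean log2 signal. With 1 array per group no p-value was computed. The steps were tested on simulated data with 3-fold changes in genes well above the floor, which does not cover members near the floor. All members were named, together with every gene of the lists past 2-fold and otherwise the highest and lowest of a list. Further genes quoted with their values were chosen after these were seen. The members and lists were chosen with earlier results of these data known. The alternatives were other floors, log2(signal + 32), quantile normalization, centring, rescaling, other choices of probe set and thresholds of 1.5-fold and 3-fold. Python 3.11.15, numpy 2.4.6, pandas 2.3.3 and matplotlib 3.10.9 were used.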

Additional observations from a re-analysis of the deposited data

How the results depend on the processing

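Fasn, Acaca, Acly, Acss2 and Slc25a1 were higher with the ligands under all 10 alternatives of floor, normalization and probe set choice. Most of these could not move Fasn or Slc25a1, each read by a single bright probe set. Their ratios changed only with log2(signal + 32), quantile normalization and centring, and then little. The log2 ratio of Acly ran from 0.58 to 0.73 and that of Slc25a1 from 0.33 to 0.35. Acss2 was at 1.32 when its 3 measured probe sets were averaged, since the weak one is a bound, and otherwise from 1.65 to 1.67. Pnpla3 depended on the floor: its log2 ratio was 1.25 with the floor at the 25th percentile, 1.13 without a floor, and 0.26 with a floor set over probe sets of 1 symbol (406), an alternative chosen after seeing the data. Acacb was measured only with the lower floor (-1.62) and without one (-1.34), where its brighter probe set alone represents it, and Mlxipl only without one (0.68). The median of the measured members was 1.36 with the floor at the 75th percentile and also when only values over the floor on each array were kept, both of which leave 5 genes. The count of member probe sets at least 2-fold higher, 5, became 8 with the lower floor and 8 without a floor, 10 at 1.5-fold and 1 at 3-fold. With the lower floor and without a floor, the 8 included the dimmer Acacb probe set (161 with the ligands and 29.9 with DMSO). In both settings the brighter Acacb probe set and a Thrsp probe set (60.0 with the ligands and 205 with DMSO) were at least 2-fold lower. The count of member genes, 3, became 4 with the lower floor and 4 without a floor, where Pnpla3 passed 2-fold, 5 at 1.5-fold and 1 at 3-fold. For the other pathway genes, 4 became 6 with the lower floor, 7 without a floor, 5 with probe sets averaged, 8 at 1.5-fold and 2 at 3-fold. The share of all genes or probe sets called was computed only for the main setting. The counts under the alternatives therefore cannot be set against such a share. No paired analysis was possible because each group has 1 array. That single array per group, and signals near the floor for Acacb, Mlxipl, Thrsp and Pnpla3, limit the precision.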
